A study of Mus musculus with 9 samples.

Results

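Genes of the T cell receptor (TCR) complex and its coreceptor, and the gene of the phosphatase CD45, were followed through 9 libraries of tumor-infiltrating T cells. The 10 genes were the CD3 signaling chains Cd3d, Cd3e, Cd3g and Cd247, the CD8 chains Cd8a and Cd8b1, the TCR constant regions Trac, Trbc1 and Trbc2, and Ptprc, which encodes CD45. They were chosen by name, not by level, and all 10 were found by gene identifier among the 32976 genes counted. The cells came from wildtype mice carrying CT26 (CT26.WT) tumors, a colorectal carcinoma line grown under the skin of BALB/c mice, and every mouse had received the PD-1 antibody RMP1-14 on days 3, 6 and 9 after implantation. CD8+ T cells that bound a tetramer of the tumor peptide GSW11 were sorted into 3 groups of 3 libraries: TetHighProg, high avidity cells from progressing tumors (libraries 1, 2 and 5), TetLowReg, low avidity cells from regressing tumors (libraries 6, 7 and 8), and TetLowProg, low avidity cells from progressing tumors (libraries 9, 10 and 12, by replicate number). Avidity was read from the strength of tetramer staining, and all of the cells had been exposed to the antibody, so no library stood for untreated cells. The labels do not give the age of the mice, and they do not say which low and high avidity libraries of progressing tumors came from the same tumor. The study describes both as sorted from one set of progressing tumors, so TetHighProg and TetLowProg libraries may share a tumor, and the tests between them treat the libraries as independent. The p-values below measure only the spread between these libraries.

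The TCR of most T cells is a pair of α and β chains, each with a variable part that recognizes peptide on a major histocompatibility molecule and a constant part that anchors it in the membrane. The pair cannot signal on its own and relies on CD3γ, CD3δ, CD3ε and the ζ chain, whose tails carry the tyrosine motifs phosphorylated by the kinase Lck. On cytotoxic T cells the coreceptor CD8, a dimer of CD8α with CD8β or with a second CD8α, binds the class I molecule and brings Lck to the complex, while CD45 removes an inhibitory phosphate from Lck.

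The libraries held 16405306 to 36429515 gene counts, but they differed far more in how many genes those counts covered. Between 599 and 1298 genes reached 10 counts in TetHighProg libraries 1 and 2, TetLowReg replicate 6 and TetLowProg replicate 10, against 3181 to 8071 in the other 5 libraries. Defining markers of other cells were not evenly spread either. Summed CPM (counts per 1000000 gene counts) of 7 B cell genes was 0.0299 to 6.43 in TetHighProg, 0.0907 to 2754 in TetLowReg and 0.0398 to 2764 in TetLowProg, and that of 13 macrophage and dendritic cell genes was 78.2 to 1543, 0.227 to 8541 and 0 to 764. Of the 7 B cell genes, 6 reached 10 counts in TetLowReg replicate 7 and 7 in TetLowReg replicate 8 and TetLowProg replicate 12, while Ighm alone did in TetLowProg replicate 9 (242 CPM) and Igkc alone in TetHighProg replicate 5 (6.43 CPM). Of the 13 macrophage and dendritic cell genes, 7 reached 10 counts in TetLowReg replicate 7, led by Lyz2 at 8222 CPM, 5 in TetLowProg replicate 12, 4 in TetLowProg replicate 9 and 3 in TetLowReg replicate 8, against 1 in each TetHighProg library (Lyz2 at 1543 CPM in replicate 1), and C1qa had 0 counts in all 9. The 5 genes of CD4 T cells and regulatory T cells summed to at most 0.0441 CPM in TetHighProg, 79.9 CPM in TetLowReg and 241 CPM in TetLowProg. The 241 CPM, in TetLowProg replicate 9, was all Ctla4, with 0 counts there on Cd4, Foxp3, Cd40lg and Il2ra. Cd4 itself was read in TetLowReg libraries 7 and 8 and with 2 counts in TetLowProg replicate 12. Foxp3 reached 10 counts in TetLowReg libraries 7 and 8 only. The 9 tumor and stroma genes summed to 0.395 to 387 CPM in TetHighProg, 0.181 to 41.0 CPM in TetLowReg and 0.318 to 95.2 CPM in TetLowProg. Col1a2 alone made up 372 of the 387 CPM, in TetHighProg replicate 1. Of these genes, 2, 0 and 1 reached 10 counts in TetHighProg libraries 1, 2 and 5. In TetLowReg libraries 6, 7 and 8 it was 0, 3 and 5, and in TetLowProg libraries 9, 10 and 12 it was 3, 0 and 2. Epcam, Col1a1, Col3a1 and Sparc reached 10 counts in low avidity libraries only, and Krt8, Krt18 and Krt19 had 0 counts in all 9. The 4 NK cell genes reached 206 CPM in TetHighProg, 11.5 CPM in TetLowReg and 153 CPM in TetLowProg, mostly Klrk1, which CD8 T cells also express (7.62 of the 11.5 CPM, with Eomes at 3.90), and Ncr1 and Klrb1c had 0 counts throughout. The 5 erythroid genes had 0 counts in all TetHighProg libraries and 31.2, 33.4 and 69.6 CPM in TetLowReg libraries 7 and 8 and TetLowProg replicate 12. The part of these differences in the results below was not tested except where values without a library are given. Since the libraries were made from bulk RNA, fewer cells with a transcript and less of it per cell cannot be told apart.

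All 10 genes reached 10 counts in 4 of the 9 libraries, which were TetHighProg replicate 5, TetLowReg replicate 8 and TetLowProg libraries 9 and 12. TetLowReg replicate 7 had 9 of the 10, with Cd247 at 2 counts. The 4 libraries with few genes had 7 (TetHighProg replicate 1), 3 (TetHighProg replicate 2), 7 (TetLowReg replicate 6) and 5 (TetLowProg replicate 10). Of the 40 values of the 10 genes in those 4 libraries, 13 were 0 and another 5 lay between 1 and 9 counts, while the 50 values of the other 5 libraries held no 0. A count of 0 allowed a level of up to 0.0898 CPM in TetHighProg replicate 1, 0.118 CPM in TetHighProg replicate 2, 0.136 CPM in TetLowReg replicate 6 and 0.119 CPM in TetLowProg replicate 10 (3 counts of each total). These limits, and the intervals of shares given below, cover counting error only, and reads amplified by PCR are not independent molecules.

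**Figure D1:**
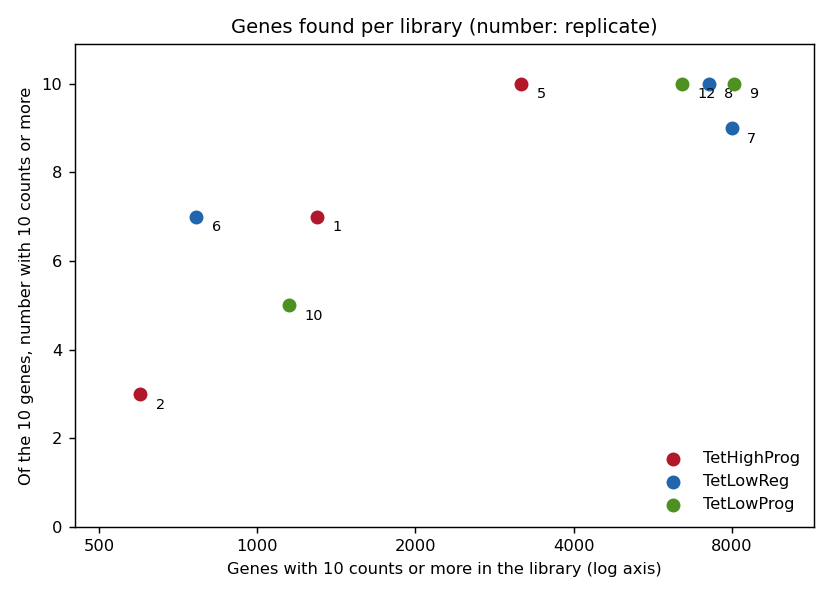
Genes with 10 counts or more in each library (x axis, log scale) against how many of the 10 TCR, CD3, CD8 and CD45 genes reached 10 counts (y axis), 1 point per library, colored by group and numbered by replicate. The 4 libraries with 599 to 1298 genes had 3 to 7 of the 10, and the 5 libraries with 3181 to 8071 genes had 9 or 10.

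Together the 10 genes took 0.596%, 0.893% and 0.555% of the gene counts in TetHighProg libraries 1, 2 and 5, 0.676%, 0.164% and 0.226% in TetLowReg libraries 6, 7 and 8, and 0.677%, 0.468% and 0.370% in TetLowProg libraries 9, 10 and 12. The lowest shares were those of TetLowReg libraries 7 and 8, and the highest was that of TetHighProg replicate 2, where Ptprc and Cd8b1 supplied nearly all of it. The CD3 chains, a TCR α and at least 1 β constant gene were all found in 4 libraries, both CD8 chains in 5, and Trac with at least 1 β constant gene in 8. TetHighProg replicate 2 was the exception in the last count, with 0 counts on Trac, Trbc1 and Trbc2.

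Over 5813 genes, edgeR's quasi-likelihood test was run between the 3 groups, and calls needed both a Benjamini-Hochberg adjusted p under 0.05 and a log2 difference larger than 2 in size. No gene was called in any of the 3 comparisons (0.0% of 5813 genes each), so none of the 10 was called either. At an unadjusted p under 0.05 edgeR gave 1135 genes (19.5%) between TetLowReg and TetHighProg, 1475 (25.4%) between TetLowProg and TetHighProg and 54 (0.929%) between TetLowProg and TetLowReg, and none of the 10 genes was among them in any comparison. DESeq2 with the 3 groups called 34.1%, 43.1% and 1.22% of genes with an adjusted p in these comparisons, DESeq2 on the pairs of groups called 29.1%, 42.6% and 0.209%, and limma-voom with quality weights called 41.5%, 49.9% and 0.0%. Of the 10 genes, DESeq2 with the 3 groups called Cd8a against TetHighProg in both low avidity groups (of 9 with an adjusted p), DESeq2 on the pairs called none (of 5, 10 and 8 with an adjusted p), and limma-voom called Cd8a and Trbc1 in TetLowReg and Cd8a, Trbc1 and Cd247 in TetLowProg. The comparison of TetLowReg with TetHighProg and that of TetLowProg with TetHighProg share the TetHighProg libraries, and the second of them compares cells that may come from the same tumors, which the fits did not model.

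**Figure D2:**
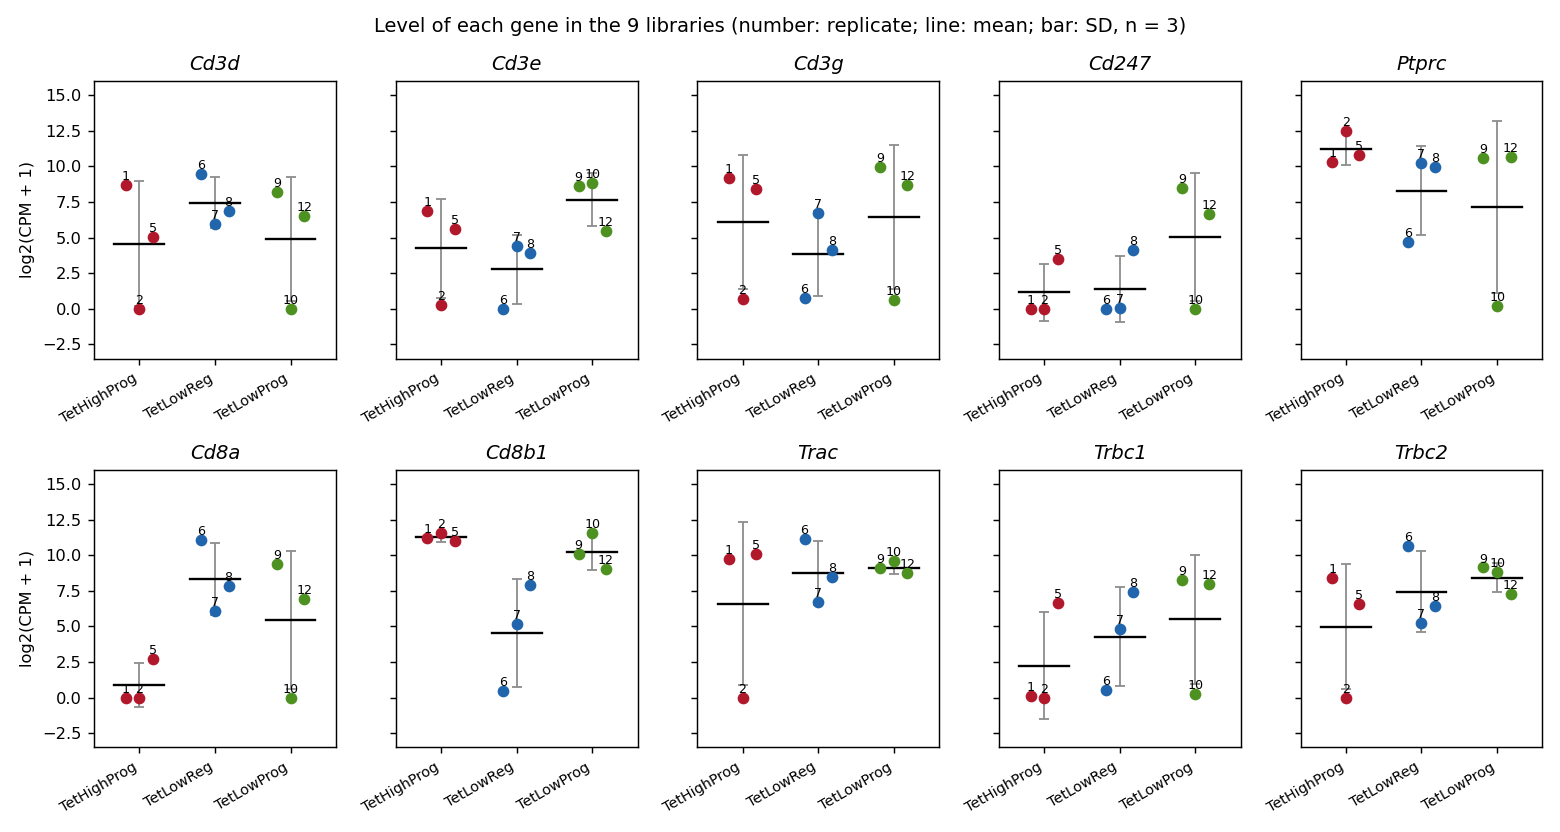
Level of each of the 10 genes as log2(CPM + 1) in the 9 libraries, by group, with each point numbered by replicate, the mean as a black line and the SD as a gray bar (n = 3). Cd8b1 was at 2003 CPM or more in every TetHighProg library and at 244 CPM or less in every TetLowReg library, while most other genes were near 0 in at least 1 library of a group.

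With all 9 libraries, over the 10 genes and 3 comparisons, the highest edgeR log2 difference was that of Cd8a and the lowest that of Cd8b1, both between TetLowReg and TetHighProg, and neither passed the test. Cd8a encodes CD8α, which is needed for any CD8 dimer on the cell surface, and Cd8b1 encodes CD8β, its partner on conventional cytotoxic T cells. The genes are neighbors on the plus strand of chromosome 6 (GRCm39, Cd8b1 at chr6:71299772-71315087 and Cd8a at chr6:71350411-71356157), 35323 bases apart. Neither shares exon bases with another gene.

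Cd8a had 0, 0 and 123 counts in TetHighProg libraries 1, 2 and 5, which were 0, 0 and 5.42 CPM. It had 2133, 66.4 and 224 CPM in TetLowReg libraries 6, 7 and 8, and 662, 0 and 119 CPM in TetLowProg libraries 9, 10 and 12. Every TetLowReg library was above every TetHighProg library, and TetLowProg overlapped with TetHighProg through its replicate 10 and with TetLowReg through its replicates 9 and 12. The mean was 1.81 ± 3.13 CPM in TetHighProg, 808 ± 1151 in TetLowReg and 260.2 ± 353 in TetLowProg (SD, n = 3), so the spread within the low avidity groups was larger than their means. In the edgeR fit the log2 difference of TetLowReg from TetHighProg was 8.85 (SE 4.63, adjusted p = 0.233), and that of TetLowProg from TetHighProg was 6.81 (SE 4.24, adjusted p = 0.254). Leaving out single libraries gave 6.92 to 13.50 and 5.24 to 11.14, the highest values being those without TetHighProg replicate 5, the only library of that group with any Cd8a. DESeq2 with the 3 groups gave 9.69 (SE 3.40, adjusted p = 0.0169) and 8.23 (SE 3.40, adjusted p = 0.0372), and DESeq2 on the pairs of groups gave no p for the first and an adjusted p of 0.0786 for the second.

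Cd8b1 ran the other way. It had 2381, 3086 and 2003 CPM in TetHighProg libraries 1, 2 and 5, averaging 2490 ± 549.9 CPM (SD, n = 3), which relative to its mean was the smallest spread of any of the 10 genes in any group. In TetLowReg libraries 6, 7 and 8 it had 0.363, 34.3 and 244 CPM, the first from 8 counts. In TetLowProg libraries 9, 10 and 12 it had 1084, 2984 and 523 CPM. All TetLowReg libraries lay below all libraries of the other 2 groups, and TetLowProg overlapped with TetHighProg. The edgeR log2 difference of TetLowReg from TetHighProg was -4.76 (SE 2.80, adjusted p = 0.256), and that of TetLowProg from TetLowReg was 3.56 (SE 2.65, adjusted p = 1). Without single libraries these were -6.42 to -4.19 and 2.26 to 5.55, the first and the last without TetLowReg replicate 8. DESeq2 with the 3 groups put the first at -5.38 (SE 2.33, adjusted p = 0.0582).

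The 2 chains were set against each other within each library, which removes the library total. Cd8b1 made up 100%, 100% and 99.7% of the Cd8b1 plus Cd8a counts in TetHighProg libraries 1, 2 and 5, 0.0170%, 34.1% and 52.1% in TetLowReg libraries 6, 7 and 8, and 62.1%, 100% and 81.4% in TetLowProg libraries 9, 10 and 12. The 95% Clopper-Pearson interval was 99.7% to 99.8% for TetHighProg replicate 5, the only library of that group with any Cd8a, and 0.00734% to 0.0335% for TetLowReg replicate 6. The TetLowReg shares lay below every share of the other groups. The mean share was 28.7% in TetLowReg, 99.9% in TetHighProg and 81.2% in TetLowProg. TetLowReg minus TetHighProg was -71.2 percentage points, and TetLowProg minus TetLowReg was 52.4. Each difference had an exact permutation p of 0.1, two-sided (0.3 after adjustment over 6 tests), which is the smallest that 3 libraries against 3 can give. TetLowProg differed from TetHighProg by -18.7 points (exact permutation p = 0.4), by -28.1 without TetLowProg replicate 10 and by -9.19 without TetLowProg replicate 9. Leaving out any 1 library kept the sign of each difference, with a range of -82.9 to -56.8 points between TetLowReg and TetHighProg and 38.1 to 64.1 between TetLowProg and TetLowReg.

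**Figure D3:**
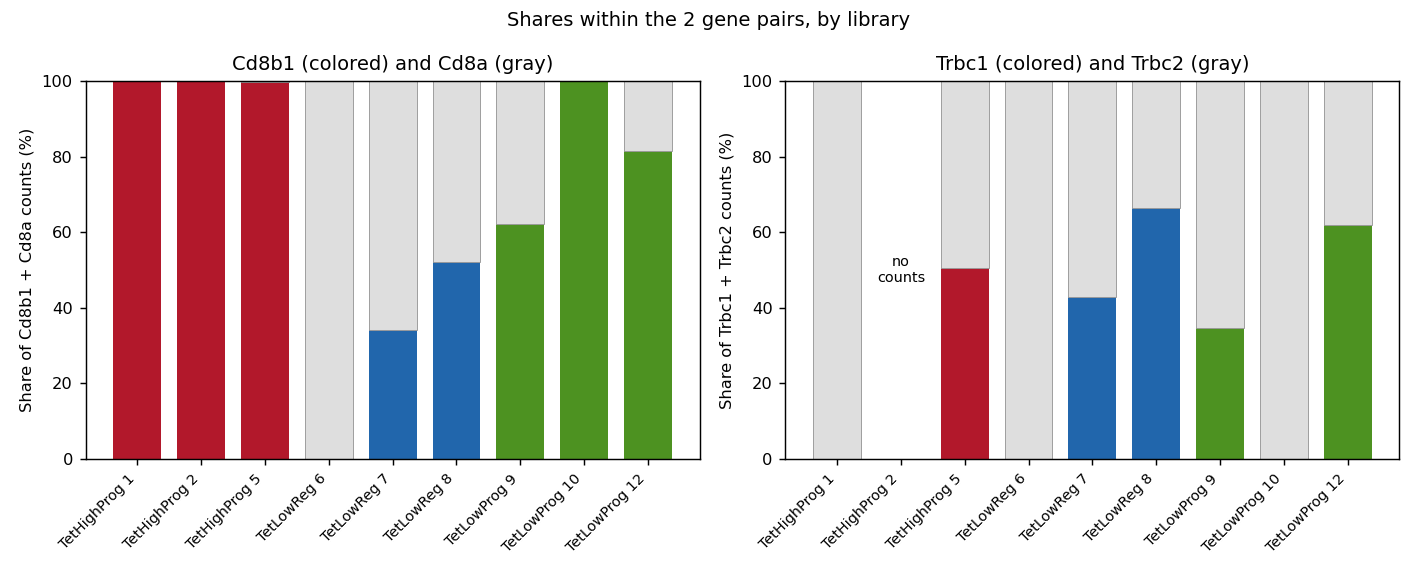
Share of Cd8b1 in the Cd8b1 plus Cd8a counts (left) and of Trbc1 in the Trbc1 plus Trbc2 counts (right), 1 bar per library, in percent, colored by group with the second gene in gray. The colored part is 99.7% or more in TetHighProg and 52.1% or less in TetLowReg for the CD8 pair, and TetHighProg replicate 2 has no counts on the TCR pair.

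All 3 zeros of Cd8a fell in libraries with few genes, so the pair was also read in the 5 libraries with more than 3000 genes. There TetHighProg was represented by replicate 5 alone, with 5.42 CPM of Cd8a and 2003 CPM of Cd8b1. The 2 TetLowReg libraries had 66.4 and 224 CPM of Cd8a and 34.3 and 244 CPM of Cd8b1, and the 2 TetLowProg libraries had 662 and 119 CPM of Cd8a and 1084 and 523 CPM of Cd8b1. Both low avidity groups were above TetHighProg in Cd8a and below it in Cd8b1. In an edgeR fit of these 5 libraries, where the lone TetHighProg library is assumed to vary like the others, the log2 differences of TetLowReg from TetHighProg were 5.29 for Cd8a (SE 3.24, adjusted p = 0.694) and -3.36 for Cd8b1 (SE 1.86, adjusted p = 0.694).

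None of the 4 CD3 chains passed the edgeR test in any comparison. Cd3g, Cd3d and Cd3e lie next to each other on chromosome 9 (GRCm39, chr9:44880870-44891735, chr9:44893083-44899173 and chr9:44910037-44920925), with 1347 bases between the first pair and 10863 between the second. Cd247, which encodes the ζ chain, stands alone at chr1:165616250-165704846. All 4 chains reached 10 counts in 4 libraries, and every other library lacked at least 1.

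Cd3d, which encodes CD3δ, which pairs with CD3ε, had 417, 0 and 31.7 CPM in TetHighProg libraries 1, 2 and 5. It had 698, 62.6 and 118 CPM in TetLowReg libraries 6, 7 and 8 and 297, 0 and 91.8 CPM in TetLowProg libraries 9, 10 and 12. The 3 groups overlapped, and TetLowReg was the only one with the gene in every library. Its mean there was 293 ± 352 CPM (SD, n = 3), against 149.5 ± 232 in TetHighProg and 129.8 ± 152 in TetLowProg. The edgeR adjusted p was 0.948 or more in every comparison.

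Cd3e, which encodes CD3ε, the chain shared by both CD3 dimers, had 115, 0.237 and 48.9 CPM in TetHighProg libraries 1, 2 and 5, the second from 6 counts. It had 0, 20.8 and 14.0 CPM in TetLowReg libraries 6, 7 and 8, and 398, 457 and 44.3 CPM in TetLowProg libraries 9, 10 and 12. All TetLowProg libraries were above all TetLowReg libraries, with means of 299.6 ± 223 and 11.6 ± 10.6 CPM (SD, n = 3). The edgeR log2 difference was 3.81 (SE 4.50, adjusted p = 1), and the exact permutation p on log2(CPM + 1) was 0.1 (0.6 adjusted over 30 tests). In the 5 libraries with more than 3000 genes the edgeR log2 difference was 2.48 (SE 2.63, adjusted p = 0.746).

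Cd3g, which encodes CD3γ, was the only gene of the 10 with at least 10 counts in all 9 libraries, although 3 of its values came from 14 or 15 counts. It had 589, 0.592 and 343 CPM in TetHighProg libraries 1, 2 and 5, 0.681, 107 and 16.8 CPM in TetLowReg libraries 6, 7 and 8, and 1003, 0.557 and 415 CPM in TetLowProg libraries 9, 10 and 12. One library of each group was under 1 CPM, and the groups overlapped. The edgeR log2 differences were -2.12 for TetLowReg against TetHighProg (SE 3.62, adjusted p = 0.810) and 2.33 for TetLowProg against TetLowReg (SE 3.65, adjusted p = 1). Without TetLowReg replicate 7 they were -4.87 and 5.50, and without TetHighProg replicate 1 the first was -1.04.

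Cd247 was the lowest of the 10 genes, with 10 counts or more in 4 libraries and 0 counts in 4. It had 0, 0 and 10.1 CPM in TetHighProg libraries 1, 2 and 5, 0, 0.0549 and 16.3 CPM in TetLowReg libraries 6, 7 and 8, and 365, 0 and 99.0 CPM in TetLowProg libraries 9, 10 and 12. The 2 highest libraries were both TetLowProg, and the third of that group was at 0, so all groups overlapped. The edgeR log2 difference of TetLowProg from TetHighProg was 5.24 (SE 5.15, adjusted p = 0.553), with a range of 4.10 to 10.45 when single libraries were left out, the highest without TetHighProg replicate 5. Of its 5887 exon bases, 3213 are shared with Pou2f1 on the opposite strand or with Gm16565, and reads on shared bases were not counted for any gene. When the counts of the 2 strand columns were added, Cd247 in TetLowReg replicate 7 went from 2 to 92 counts and in TetHighProg replicate 5 from 230 to 348.

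Single libraries held opposite CD3 genes at high levels and at 0. TetLowReg replicate 6 had 15390 counts on Cd3d and 0 on its neighbor Cd3e, and TetLowProg replicate 10 had 0 on Cd3d and 11486 on Cd3e. TetHighProg replicate 2 had 21 counts on the 4 CD3 chains together, beside 147947 on Ptprc and 78155 on Cd8b1. In the 5 libraries with more than 3000 genes, Cd3d, Cd3e and Cd3g were all present, at 14.0 to 1003 CPM.

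Of the 10 genes, Trac had the highest median level per length over the 9 libraries, but the order differed by group: the mean of Cd8b1 was above that of Trac in TetHighProg (1127 against 686 CPM per kilobase) and TetLowProg (692 against 620.3) and below it in TetLowReg (42.1 against 981). Trac (chr14:54457978-54461663, plus strand) encodes the constant part of the α chain and has no near copy. It had 829, 0 and 1094 CPM in TetHighProg libraries 1, 2 and 5, 2298, 103 and 349 CPM in TetLowReg libraries 6, 7 and 8, and 535, 785 and 420 CPM in TetLowProg libraries 9, 10 and 12. The 3 groups overlapped, with means of 641 ± 571, 917 ± 1203 and 580.0 ± 187 CPM (SD, n = 3). The edgeR log2 differences were between -0.75 and 0.52, with SEs of 2.85 to 2.86 and adjusted p of 0.959 or more.

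The β chain has 2 constant genes, Trbc1 (chr6:41515152-41516815) and Trbc2 (chr6:41523664-41525286), which lie 6848 bases apart, and a rearranged β gene uses one or the other. Their coding parts have 518 bases each in GRCm39, 95.6% of them identical. Of the 23 differences only 1, C260A (the base in Trbc1, its position counted from the first coding base, and the base in Trbc2), falls in the 375-base first coding exon. The other 22 lie in the last 143 bases. Exon bases outside the coding parts were not compared. The last 143 coding bases are shown here because nearly all that tells the 2 coding parts apart is in them. They are given 5′ to 3′ and spliced, with the differing bases in capitals.

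Trbc1: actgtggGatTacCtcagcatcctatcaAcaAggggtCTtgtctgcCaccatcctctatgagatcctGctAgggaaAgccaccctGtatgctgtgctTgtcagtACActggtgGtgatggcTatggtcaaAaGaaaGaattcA
Trbc2: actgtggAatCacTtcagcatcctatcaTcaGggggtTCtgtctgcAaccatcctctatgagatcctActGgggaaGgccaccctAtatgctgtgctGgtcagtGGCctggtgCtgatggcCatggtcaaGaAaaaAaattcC

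**Figure D4:**
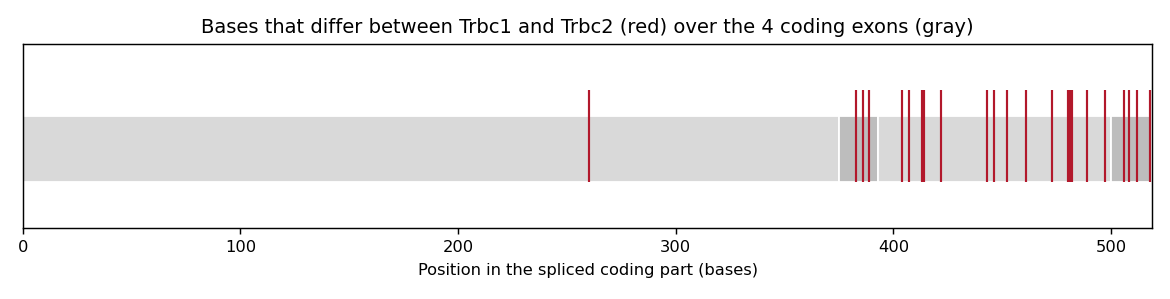
Position along the 518 spliced coding bases (x axis, in bases) of the 23 bases that differ between Trbc1 and Trbc2 (red lines), over the 4 coding exons (gray blocks). One line falls in the first 375 bases and 22 in the last 143.

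A read from the first exon therefore matches both genes nearly everywhere, and reads that map to several places were left out of the counts. Of all stretches of 38 bases in the coding part of Trbc1, 63.8% also occur in Trbc2, and of those of 75 bases 52.5% do. The levels of both genes are thus lower than the true ones by an unknown amount, and the split between them rests on the 3′ part of the transcripts.

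Trbc2 had 331, 0 and 94.7 CPM in TetHighProg libraries 1, 2 and 5, 1604, 36.5 and 86.4 CPM in TetLowReg libraries 6, 7 and 8, and 561, 456 and 153 CPM in TetLowProg libraries 9, 10 and 12. Trbc1 had 0.0898, 0 and 96.6 CPM in the TetHighProg libraries, 0.454, 27.3 and 170.2 CPM in the TetLowReg libraries and 298, 0.199 and 249 CPM in the TetLowProg libraries, in the same order of replicates. Trbc2 was found in 8 libraries and Trbc1 in 6. For both genes the groups overlapped in every comparison, and edgeR gave adjusted p values of 0.826 or more.

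The share of Trbc1 in the β constant counts was either near 0 or 34.7% and more. It was 0.0271% and 50.5% in TetHighProg libraries 1 and 5, 0.0283%, 42.8% and 66.3% in TetLowReg libraries 6, 7 and 8, and 34.7%, 0.0436% and 61.9% in TetLowProg libraries 9, 10 and 12. In the 3 libraries with few genes that had any β constant counts, nearly every read was on Trbc2, with Clopper-Pearson upper bounds, for counting error only, of 0.0791%, 0.0520% and 0.102%. In the 5 libraries with more genes the share was 34.7% to 66.3%. Trbc1 was at 10 counts or fewer in TetHighProg libraries 1 and 2, TetLowReg replicate 6 and TetLowProg replicate 10, and the shares of the groups overlapped (exact permutation p = 0.8 in each comparison, where the smallest possible is 0.2 against the 2 TetHighProg libraries and 0.1 otherwise).

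Ptprc encodes CD45, which all white blood cells carry, so its reads need not come from T cells. It had 1303, 5842 and 1823 CPM in TetHighProg libraries 1, 2 and 5, 24.5, 1186 and 1021 CPM in TetLowReg libraries 6, 7 and 8, and 1565, 0.159 and 1588 CPM in TetLowProg libraries 9, 10 and 12, the 0.159 from 4 counts. All TetLowReg libraries were below all TetHighProg libraries, but TetLowReg replicate 7 (1186) was close to TetHighProg replicate 1 (1303). With the TMM effective library sizes that edgeR uses, these 2 became 2041 and 1330 CPM and the groups overlapped, as they did when mitochondrially encoded genes were left out of the totals. The edgeR log2 difference of TetLowReg from TetHighProg was -1.97 (SE 2.33, adjusted p = 0.656), without TetHighProg replicate 2 it was -0.42, and in the 5 libraries with more than 3000 genes it was 0.04.

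Counted over the 10 genes, the libraries of TetLowReg and TetHighProg did not overlap in CPM for Cd8a (higher in TetLowReg) and for Cd8b1 and Ptprc (lower). Among the 5813 genes tested, 4.8% were higher and 0.998% lower without overlap in this comparison. Between TetLowProg and TetLowReg, Cd3e and Cd8b1 were higher without overlap, against 2.77% of the 5813 genes, and none of the 10 was lower, against 0.654%. Between TetLowProg and TetHighProg none of the 10 was separated, against 6.67% higher and 0.499% lower. With 10 genes, these shares are read as a description only. The count for TetLowReg and TetHighProg went from 3 to 5 without TetHighProg replicate 2, that for TetLowProg and TetHighProg from 0 to 4 without TetLowProg replicate 10, to 2 without TetHighProg replicate 1 or TetLowProg replicate 12 and to 1 without TetHighProg replicate 2 or 5, and that for TetLowProg and TetLowReg from 2 to 6 without TetLowProg replicate 10 and to 4 without TetLowReg replicate 6. Groups of 2 separate more often, and the share of the 5813 genes without overlap in either direction moved too. It went from 5.8% to 9.86% without TetHighProg replicate 2 in the first comparison, and to 46.1% without TetLowReg replicate 6, where the count of the 10 was 3. Between TetLowProg and TetHighProg it went from 7.17% to 50.1% without TetLowProg replicate 10 and was 8.95% to 14.9% without the other 4 libraries named. Between TetLowProg and TetLowReg it went from 3.42% to 27.9% without TetLowProg replicate 10 and to 10.8% without TetLowReg replicate 6.

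**Figure D5:**
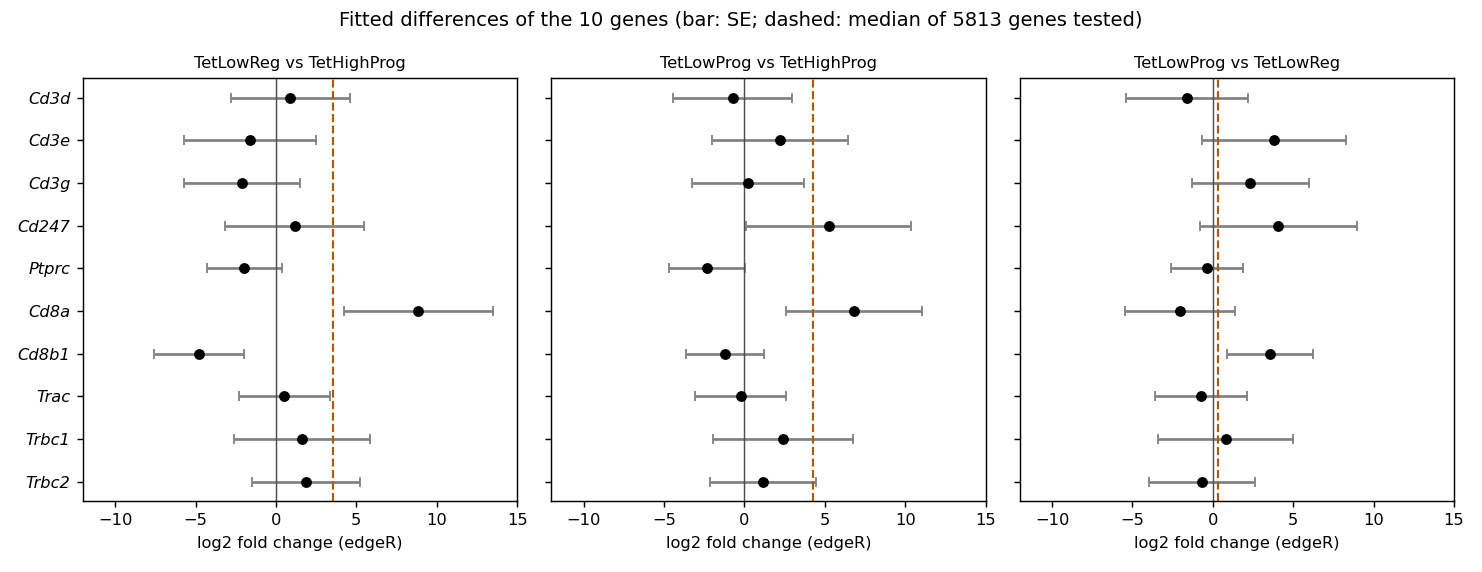
Fitted log2 fold change of each of the 10 genes with its SE (edgeR, 3 groups in one model), in the 3 comparisons, with 0 as a solid line and the median of the 5813 genes tested as a dashed line. Cd8a is at 8.85 and Cd8b1 at -4.76 between TetLowReg and TetHighProg, and no point passed the adjusted p of 0.05.

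The median log2 difference over all genes tested was far from 0 in the comparisons with TetHighProg, at 3.52 for TetLowReg and 4.27 for TetLowProg, and 0.35 between the low avidity groups. Library totals in place of TMM moved these medians to 3.05, 4.56 and 1.23. The medians over the 10 genes were 0.70, 0.69 and 0.21, and with library totals 0.60, 1.14 and 1.06. With DESeq2 on 3 groups and the same 5813 genes, the medians were 1.06, 1.77 and 1.38 over the 10 genes and 4.66, 6.19 and 1.43 over all of them. The median of the 10 was the lower one in all 3 comparisons under these 3 settings. Read against the median gene of the edgeR fit with TMM, of the 10 only Cd8a in TetLowReg, and Cd8a and Cd247 in TetLowProg, lay above the median. Between the low avidity groups Cd247 (4.07), Cd3e (3.81), Cd8b1 (3.56), Cd3g (2.33) and Trbc1 (0.80) lay above it, and none of these differences passed the test.

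Ordered by the median level per kilobase of exon over the 9 libraries, Trac came first with 573 CPM per kilobase, followed by Cd8b1 (490.3), Trbc2 (221), Ptprc (69.4), Trbc1 (37.0), Cd3d (35.5), Cd3g (32.6), Cd8a (18.3), Cd3e (10.8) and Cd247 (0.00933). The SD over the libraries was 738 for Trac, 570.1 for Cd8b1, 726 for Trbc2, 91.7 for Ptprc and 20.5 for Cd247. Neighbors in this order differed by less than the larger of their SDs, and the gap between Trbc2 and Ptprc was more than the SD of Ptprc. The exon length is the union over all annotated transcripts, and the 18764 bases of Ptprc lower its value per kilobase. Trac reached rank 10 among all genes per kilobase in TetLowReg replicate 6, and Cd8b1 ranks 30, 28 and 30 in the TetHighProg libraries.

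The genes whose pattern over the 9 libraries was nearest to 3 of the members were found by the root mean square difference of mean-centered log2(CPM + 1), over 5786 genes. Nearest to Cd3e were Bcl11b (0.74), a transcription factor of T cell development, Esyt2 (0.91) and Trap1 (0.98), where the median gene was at 3.37. Nearest to Trac were Macroh2a1 (0.69), Cd28 (0.78), the costimulatory receptor, and Rbm4b (0.79), with a median of 3.81. Trbc2 was the 15th nearest to Trac (1.05), the closest that any of the other 9 genes came to one of these 3. Nearest to Cd8a were Ostf1 (1.09), Taok3 (1.10) and Sfr1 (1.15), while Cd8b1 ranked 5777 of 5786 (7.09). The points share the library totals and the libraries with few genes, and likeness of this kind is a description.

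A further 30 genes that act around the TCR were listed, from the kinases Lck, Fyn and Zap70 to adaptors, phosphatases and costimulatory receptors. At least 10 counts in some library were found for 29 of them, and Ptprcap was the only 1 found in all 9. Of the 26 tested by edgeR none was called. At an unadjusted p under 0.05, 3 were higher and 0 lower in TetLowReg than in TetHighProg, 8 higher and 0 lower in TetLowProg than in TetHighProg, and 0 in either direction between the low avidity groups. These are 3 and 8 of 26 genes, against 19.5% and 25.4% of all genes. Their median log2 differences were 1.11, 2.40 and 1.85 in the 3 comparisons, beside 3.52, 4.27 and 0.35 over all genes.

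The 5 highest of the list per kilobase were Ptprcap, Cd28, Lat, Cd2 and Lck. Ptprcap, whose protein binds CD45, had 754, 2555 and 229 CPM in TetHighProg libraries 1, 2 and 5, 269.9, 43.0 and 67.7 CPM in TetLowReg libraries 6, 7 and 8 and 243, 1081 and 259.8 CPM in TetLowProg libraries 9, 10 and 12. Cd28 had 3070, 0 and 2015 CPM, then 8589, 267 and 866 CPM, and then 495, 2662 and 457 CPM in the same libraries, and like Trac it was at 0 in TetHighProg replicate 2. Lat, the adaptor that Zap70 phosphorylates, had 0, 1764 and 695 CPM, then 0, 168 and 115 CPM, and then 1102, 2426 and 614 CPM.

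Cd2, an adhesion receptor of T cells, had 0.0299, 0 and 0 CPM in TetHighProg, 3249, 269 and 243 CPM in TetLowReg and 166, 0 and 426 CPM in TetLowProg, so its TetLowReg libraries lay above its TetHighProg libraries as those of Cd8a did. Its edgeR log2 difference between these groups was 13.80 (SE 4.65, adjusted p = 0.233). Lck, the kinase that the CD8 tail binds, had 0, 2555 and 1109 CPM in TetHighProg, 0, 425 and 231 CPM in TetLowReg and 1822, 0.0796 and 705 CPM in TetLowProg. Its level was at or near 0 in TetHighProg replicate 1, TetLowReg replicate 6 and TetLowProg replicate 10, all of which had Trac.

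The constant genes of the γδ TCR, which conventional CD8 T cells do not use as protein, were read in few libraries. Trgc2 had 31359 counts (939 CPM) in TetHighProg replicate 1, 63 (2.49 CPM) in TetHighProg replicate 2 and 1039 (28.6 CPM) in TetLowProg replicate 9, and 0 in the other 6 libraries. Its edgeR adjusted p was 0.233 for TetLowReg against TetHighProg and 0.460 for TetLowProg against TetHighProg. Trgc1 had 3 counts and Trgc3 21 counts, both in TetHighProg replicate 1, and Trgc4 had 48 counts in TetLowReg replicate 8 and 2 in TetLowProg replicate 12. The γ constant genes resemble each other, so the split of reads among them is uncertain, and Trdc was not analysed here.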

How the data were processed

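The genes were followed in 9 RNA-seq libraries, 3 per group, grouped by the sample titles. The members, gene lists and comparisons were chosen with earlier results of these data known. Smart-seq2 amplifies full-length cDNA by PCR without molecular identifiers, so counts are not independent molecules. The authors aligned reads to GRCm39 with STAR 2.7.6a and deposited raw counts per gene. The methods name featureCounts, whereas the tables have the layout of STAR's own gene counts, whose unstranded column was used. The annotation release is not given in the sources used here. Reads at several places or on overlapping genes are not counted, and 4 summary lines per table were left out. No 2 libraries of a group were alike enough to be 1 library deposited again.

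Symbols, positions and exon lengths came from GENCODE M39, which matched 28645 of 32976 genes, and sequences from the GRCm39 genome, which is not that of BALB/c. Tests were edgeR 4.0.16 in R 4.3.3 (quasi-likelihood, TMM, default filter, 3 groups in one model, prior count of 2, two-sided, adjusted over all genes tested) and exact permutation tests on log2(CPM + 1) or on shares, adjusted over 30 and 6 tests. The SE of an edgeR log2 difference is its size divided by the square root of F. Alternatives were DESeq2 1.42.0 on 3 groups or on pairs, limma 3.58.1 (voom with quality weights), edgeR on pairs, no filter, library totals in place of TMM, summed strand columns, the 5 libraries with at least 3000 genes at 10 counts, no fold threshold, and each library left out. The edgeR and DESeq2 fits were also run on simulated counts with 200 genes raised 16-fold, and the outcome is not given here. The spread between libraries that the main edgeR fit estimated (common dispersion) was 8.12. The genes named were the 10 members, the 5 highest per kilobase of 30 genes around the TCR, the γδ constant genes and the 3 genes nearest to each of Cd3e, Cd8a and Trac.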

Additional observations from a re-analysis of the deposited data

How the results depend on the processing

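No paired analysis was possible because the groups share no replicate numbers, although TetHighProg and TetLowProg are described as sorted from one set of progressing tumors. In edgeR fits none of the 10 genes was called under any alternative, and no filter, the summed strand columns and no fold threshold left the count of all genes called at 0 in the 3 comparisons. Between TetLowReg and TetHighProg, the genes called went from 0 to 2411 with limma-voom (2 of the 10 genes), 1830 with DESeq2 on 3 groups (1 of the 10), 1065 with DESeq2 on the pair, 2 with edgeR on the pair and 3 in the 5 libraries with at least 3000 genes. Between TetLowProg and TetHighProg they went from 0 to 2901 with limma-voom (3 of the 10), 2370 with DESeq2 on 3 groups (1 of the 10), 1965 with DESeq2 on the pair, 1 with edgeR on the pair, 1 with library totals in place of TMM and 3 in the 5 libraries. Between TetLowProg and TetLowReg they went to 62 with DESeq2 on 3 groups, 10 with DESeq2 on the pair and 1 with edgeR on the pair. The cause was not tested.

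With each library left out in turn, edgeR called 0 genes in the first 2 comparisons and 0 to 2 in the third (2 without TetLowProg replicate 12). DESeq2 on the pairs, with libraries left out as an alternative added after seeing the data, called 1103 to 2993, 1939 to 4957 and 486 to 1434 genes, which were 20.3% to 41.6%, 36.8% to 64.6% and 7.28% to 16.04% of genes with an adjusted p, and 0 to 2, 0 to 3 and 0 to 1 of the 10. Cd8a was called by it against TetHighProg in TetLowReg without TetHighProg replicate 2, TetLowReg replicate 7 or TetLowReg replicate 8, and in TetLowProg without TetHighProg replicate 5 or TetLowProg replicate 10. It called Cd8b1 (-7.82, adjusted p = 0.0369) in TetLowReg against TetHighProg without TetLowReg replicate 8, Trbc1 against TetHighProg in both low avidity groups without TetHighProg replicate 5, and Cd247 in TetLowProg against TetHighProg without TetHighProg replicate 5 and against TetLowReg without TetLowReg replicate 8. Also added after seeing the data, the members that did not overlap numbered 3 to 5, 0 to 4 and 2 to 6 without single libraries, against 6.88% to 46.1%, 8.74% to 50.1% and 6.33% to 27.9% of all genes tested, and the Cd8b1 share difference was -82.9 to -56.8, -28.1 to -9.19 and 38.1 to 64.1 points.

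Of 419 refitted log2 differences of the 10 genes, 380 kept their direction and 39 turned. Cd8a and Cd8b1 between TetLowReg and TetHighProg turned in 0 of 28. With limma-voom, Cd3e (0.98) and Cd3g (0.19) turned between TetLowReg and TetHighProg, Cd3d (4.54) and Trac (5.79) between TetLowProg and TetHighProg, and Trac (0.29) and Trbc2 (1.08) between the low avidity groups. In the 5 libraries with at least 3000 genes, Trac (-1.71), Trbc2 (-0.013) and Ptprc (0.040) turned in the first comparison, Cd3d (2.35) in the second, and Cd3d (0.20), Cd8a (0.52), Trac (0.41) and Trbc2 (1.64) in the third. Between TetLowProg and TetHighProg, DESeq2 turned Cd3d (0.62 on 3 groups, 0.10 on the pair) and Trac (0.44 and 0.19), no filter turned Cd3g (-0.16), and edgeR on the pair turned Trac (0.022). Between TetLowProg and TetLowReg, Ptprc turned with library totals (0.58) and with DESeq2 (0.68 on 3 groups, 0.20 on the pair). Left-out libraries turned Cd247 (-4.63 to 6.52), Cd3d (-0.36 to 4.59), Trac (-1.03 to 1.10), Trbc1 (-0.15 to 9.43) and Trbc2 (-0.82 to 3.92) in the first comparison, Cd3d (-1.54 to 2.69), Cd3g (-0.53 to 1.18) and Trac (-0.85 to 0.17) in the second, and Trac (-1.44 to 0.77), Trbc2 (-1.36 to 1.90) and Ptprc (-1.01 to 0.82) in the third. With 3 libraries per group, an edgeR log2 difference of 8.85 with an SE of 4.63 (Cd8a, TetLowReg against TetHighProg) did not pass the adjusted threshold, nor did one of 13.50 without TetHighProg replicate 5.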
